A study of Mus musculus with 6 samples.

Results

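*Cd24a*, *Ranbp3l*, *Cldn11*, *Scel* and *Cerkl* are 5 of the 24786 gene symbols measured in Raw264.7 cells with and without knockdown of *Etv5*, and their mRNA levels differed among the most between the groups, all of them being lower after knockdown. They were chosen for that loss, as genes outside the integrin family with the largest falls in mean log2(RPKM + 1) from control to knockdown cells. RPKM is a read density, scaled to the length of the gene and the number of mapped reads, and 1 was added before taking logarithms so that values near 0 could be used. Since the genes were picked on this comparison, their levels and differences are given as a description and were not tested.

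Raw264.7 is a mouse macrophage line from a tumor induced by Abelson leukemia virus, for which the labels give strain C57BL/6 and an age of postnatal day 21. The paper names C57BL/6 for its mice, and gives no strain or age for this purchased line. The cells were infected with lentivirus carrying a control shRNA (sh-NC, 3 libraries) or with lentivirus directed at *Etv5* (sh-*Etv5*, 3 libraries), in the presence of a Lipofectamine reagent. The labels give 24 or 48 h after infection for expression measurements in general. The methods add puromycin selection continued during cell passage, and the paper describes the sequenced cells as stably transfected. All groups therefore share infection, selection and an shRNA. None of these sources says which of the listed *Etv5* shRNAs was sequenced, nor that libraries came from separate infections. P-values therefore measure the spread between libraries, which may be technical. *Etv5*, which encodes a transcription factor of the ETS family, was at 9.18, 9.89 and 9.39 RPKM with sh-NC and 5.19, 4.91 and 5.28 RPKM with sh-*Etv5*. The groups did not overlap, and 54.0% of the control mean remained (log2 difference -0.78, standard error 0.0565, limma adjusted p = 2.74e-07).

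The 5 genes encode proteins with unrelated roles. CD24, the product of *Cd24a* (heat-stable antigen), is a short, heavily glycosylated protein that is held on the cell surface by a GPI lipid anchor. It is known from developing lymphocytes and granulocytes, and serves as a ligand for Siglec receptors, which bind sialic acid and restrain immune cells. RANBP3L is a relative of the nuclear export cofactor RANBP3 and has been described as an exporter of the Smad proteins that carry BMP signals. Claudin-11 forms tight junction strands in myelin and between Sertoli cells. Sciellin, the product of *Scel*, is a precursor of the cornified envelope of stratified epithelia. CERKL resembles ceramide kinase and is known from inherited retinal degeneration. None of the 5 is a textbook macrophage gene, and the source of the RNA was therefore also read from marker genes of other cell types.

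For *Ranbp3l*, *Cldn11*, *Scel* and *Cerkl*, the reference sequence before the annotated start was examined for the GGAA core that ETS factors bind. The RefSeq promoter table (GRCm38.p6) held an entry for these 4 of the 5 genes. The 250 bases before the start are shown because the genes were lower together, and capitals mark GGAA or its reverse complement TTCC.
Ranbp3l promoter, chr15:8967699-8967948, plus strand: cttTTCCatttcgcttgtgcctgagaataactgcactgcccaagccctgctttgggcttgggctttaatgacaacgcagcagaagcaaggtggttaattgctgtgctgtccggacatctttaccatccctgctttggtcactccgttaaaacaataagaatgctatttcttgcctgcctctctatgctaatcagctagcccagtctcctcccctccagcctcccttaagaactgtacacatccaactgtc
Cldn11 promoter, chr3:31149670-31149919, plus strand: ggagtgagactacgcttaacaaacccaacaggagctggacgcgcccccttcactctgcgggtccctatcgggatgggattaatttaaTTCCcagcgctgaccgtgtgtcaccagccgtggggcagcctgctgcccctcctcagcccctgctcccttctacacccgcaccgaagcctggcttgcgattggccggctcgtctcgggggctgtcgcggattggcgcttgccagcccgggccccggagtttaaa
Scel promoter, chr14:103513091-103513340, plus strand: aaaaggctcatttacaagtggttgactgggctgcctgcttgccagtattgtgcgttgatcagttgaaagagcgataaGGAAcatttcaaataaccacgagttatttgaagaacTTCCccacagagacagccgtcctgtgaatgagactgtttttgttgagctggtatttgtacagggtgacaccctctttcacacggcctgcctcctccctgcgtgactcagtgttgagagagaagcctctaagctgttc
Cerkl promoter, chr2:79428989-79429238, minus strand: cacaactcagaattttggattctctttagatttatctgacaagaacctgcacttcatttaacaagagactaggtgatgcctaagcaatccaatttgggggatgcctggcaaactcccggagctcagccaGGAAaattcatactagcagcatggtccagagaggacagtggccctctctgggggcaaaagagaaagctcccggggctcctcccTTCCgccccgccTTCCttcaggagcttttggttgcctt
The RefSeq start of *Cerkl* lies within the GENCODE gene body given further on and not at its 5′ end. The core was found in each of these promoters. *Cerkl* held 3 matches, which begin 121, 38 and 26 bases before the start, *Scel* held 2, and *Ranbp3l* and *Cldn11* held 1 each. Over all 32851 promoters of the same length the core was present in 93.4%, with a median of 3 matches. The longer forms CCGGAAG and CGGAAGT, and GAGGAAG, were searched on both strands as well, and all contain the GGAA core. They were found in 6.91%, 4.92% and 10.6% of all promoters, respectively, and in 0 of the 4. *Cldn11* had the most GC-rich promoter of the 4 (63.6%, with 19 CG dinucleotides), whereas the other 3 lay between 47.6% and 50.8%, below the median of 52.4%. A match of letters does not show that a factor binds, and its lack concerns these windows alone.

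*Cd24a* (GENCODE M21 on GRCm38, the build of mm10, chromosome 10, 43578284 to 43584265, plus strand, 5.98 kb) had the most negative log2 difference of the genes tested. It was measured at 25.4, 24.9 and 23.9 RPKM with sh-NC, and at 0.0859, 0.0252 and 0.0548 RPKM with sh-*Etv5*. All control libraries were close together and all knockdown libraries were near 0, so that 0.223% ± 0.123 (SD, n = 3) of the control mean remained. On the log2(RPKM + 1) scale the difference was -4.61. At the control level *Cd24a* lay above 74.8% of the 10738 genes tested. It entered that set through its sh-NC libraries alone, so its low place there at the knockdown level was set by the filter and the choice. The relative spread was far larger in the knockdown libraries (coefficient of variation 54.9%, against 3.01% with sh-NC), at values for which the number of reads is unknown.

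*Ranbp3l* (chromosome 15, 8967949 to 9067335, plus strand, 99.4 kb) was measured at 20.5, 19.7 and 20.5 RPKM with sh-NC, and at 0.274, 0.365 and 0.276 RPKM with sh-*Etv5*. The level in knockdown cells was 1.51% ± 0.257 (SD, n = 3) of the control mean, and the log2 difference was -4.02. *Scel* (chromosome 14, 103513342 to 103612797, plus strand, 99.5 kb) was the least expressed of the 5 genes in control cells, at 7.77, 9.44 and 8.25 RPKM. It was at 0.222, 0.123 and 0.191 RPKM in the knockdown libraries. This left 2.11% ± 0.596 (SD, n = 3), with a log2 difference of -3.01. For both genes the lowest control library exceeded the highest knockdown library many times over, by 53.9-fold for *Ranbp3l* and 35.0-fold for *Scel*.

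*Cldn11* (chromosome 3, 31149920 to 31164324, plus strand, 14.4 kb) was the most abundant of the 5 genes per length. It was measured at 57.2, 55.1 and 54.2 RPKM with sh-NC, above 89.4% of the genes tested, and at 5.91, 5.73 and 6.34 RPKM with sh-*Etv5*. Its log2 difference of -3.01 was close to that of *Scel*, yet 10.8% ± 0.557 (SD, n = 3) of its mRNA remained. *Cerkl* (chromosome 2, 79330543 to 79456785, minus strand, 126 kb) was measured at 16.8, 18.9 and 17.9 RPKM with sh-NC, and at 2.09, 1.95 and 2.63 RPKM with sh-*Etv5*. It had the smallest log2 difference of the 5 (-2.55) and kept the largest share of its control level, 12.5% ± 2.02 (SD, n = 3).

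**Figure D1:**
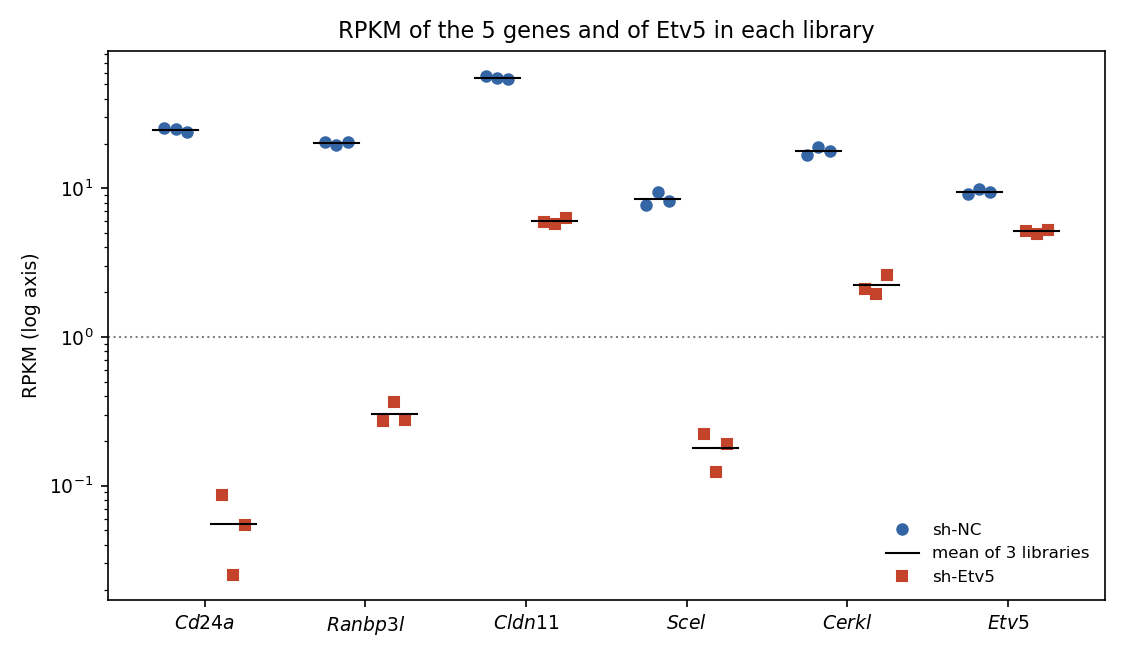
RPKM of the 5 genes and of *Etv5* in each of the 6 libraries, on a log axis, with circles for sh-NC, squares for sh-*Etv5*, horizontal bars for the mean of 3 libraries and a dotted line at 1 RPKM, the filter on low values. *Cd24a*, *Ranbp3l* and *Scel* lie below 1 RPKM in each knockdown library, while *Cldn11* and *Cerkl* stay above it.

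For each of the 5 genes every knockdown library was below every control library. Such a separation was found for 76.4% of the genes tested in either direction and for 42.1% in this direction, which the rule itself fixed. All 5 genes passed the filter of at least 1 RPKM in at least 3 libraries. *Cd24a*, *Ranbp3l* and *Scel* did so through the sh-NC libraries alone, and *Cldn11* and *Cerkl* were at 1 RPKM or more in all 6.

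Although the genes are described together, they differed in how much mRNA remained. By the percentage of the control mean that remained, *Cd24a*, *Ranbp3l* and *Scel* took places 1, 2 and 3 among the 7664 genes with at least 5 RPKM in control cells. *Cldn11* and *Cerkl* took places 12 and 14. By log2(RPKM + 1) the order was *Cd24a* (place 1), *Ranbp3l* (2), *Cldn11* (4), *Scel* (5) and *Cerkl* (11). In each of the 9 pairs of 1 knockdown and 1 control library, *Cd24a* took place 1 and *Ranbp3l* place 2. *Cldn11* and *Scel* exchanged places between 4 and 7, since their differences from pair to pair ran from -3.11 to -2.91 and from -3.22 to -2.84, respectively. *Cerkl* moved between places 9 and 21.

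In the order of falls, *Itga4* (-3.51) stood between *Ranbp3l* and *Cldn11* and was passed over as an integrin. Between *Scel* and *Cerkl* lay 5 genes that are not integrins and had more negative differences than *Cerkl*, so that *Cerkl* was not the next gene by the measure of the rule. These were *Myo1f* (-2.97), which encodes a myosin motor of leukocytes, *Kbtbd11* (-2.92), *Ndrg4* (-2.76), the sulfotransferase gene *Chst1* (-2.76) and *Tmem176b* (-2.63). The genes just beyond *Cerkl* were *Frmd4b* (-2.48), *Sema4d* (-2.48), which encodes a semaphorin, and *Plxdc1* (-2.46). Of the 10738 genes tested, 5 had a log2 difference under -3 and 32 under -2.

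**Figure D2:**
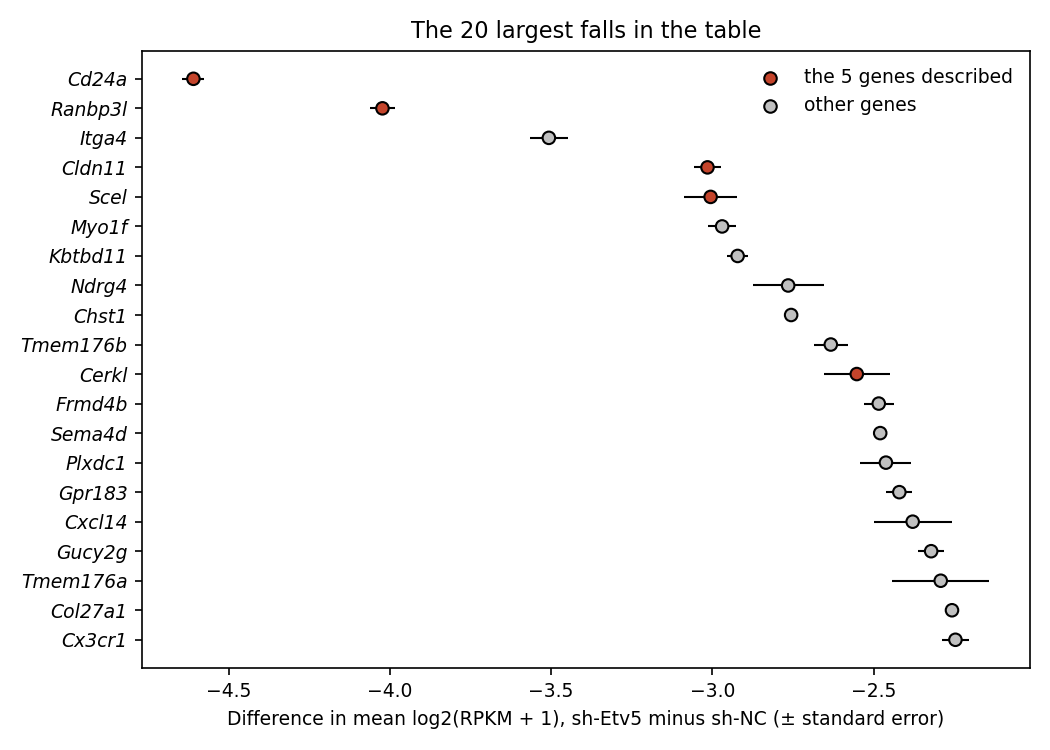
The 20 largest falls in the table, as the difference in mean log2(RPKM + 1) between sh-*Etv5* and sh-NC on the horizontal axis, with the standard error from 3 libraries per group. *Cd24a* (-4.61) and *Ranbp3l* (-4.02) stand at the top, and *Cerkl* (-2.55) comes after *Itga4* and 5 further genes.

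Likeness of pattern was measured as the root mean square difference in log2(RPKM + 1) over the 6 libraries, so that a small value means similar levels in both groups. *Cd24a* and *Ranbp3l* were each other's nearest gene, at a distance of 0.300 log2 units, and the next nearest gene to *Cd24a* was *Scel* at 1.03. The nearest gene to *Cerkl* was *Frmd4b* at 0.0865, with 16.8 RPKM in control and 2.18 RPKM in knockdown cells on average, followed by *Ndrg4* (0.182) and *Dmpk* (0.265). For *Cldn11* they were *Sema4d* (0.301), *Chst1* (0.437) and *Tmem176b* (0.444). For *Scel* they were *Gucy2g* (0.358), *Plxdc1* (0.383) and the chemokine gene *Cxcl14* (0.405). The nearest genes to *Ranbp3l* after *Cd24a* were *Ndrg4* (0.796) and *Scel* (0.838). These distances used the same values on which the described genes had been chosen for their fall. Nearness to one another and to other genes with large falls is therefore partly set by that choice. The distances are given as a description, and a shared pattern was not tested.

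The 5 genes lie on 5 chromosomes and differ in structure. *Cd24a* has at most 2 exons in an annotated transcript, *Cldn11* 3, *Cerkl* 13, *Ranbp3l* 16 and *Scel* 31. *Ranbp3l*, *Scel* and *Cerkl* span more bases than 89.4%, 89.4% and 92.2% of the annotated genes of the table, whereas *Cd24a* is longer than 27.0% of them. Few of their 50-base transcript sequences occur in transcripts of other genes on the same strand (2.75% for *Cd24a*, in *Gm6212*, 1.89% for *Ranbp3l*, 2.98% for *Cerkl* and 0.0% for *Cldn11* and *Scel*). Counting either strand, the share was 21.6% for *Cerkl* and 2.02% for *Ranbp3l*.

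*Cerkl* is the one of the 5 that shares exons with other genes. Its 3′ end runs into that of *Itga4*, which lies on the opposite strand from 79255426 to 79333123 and encodes the α4 integrin subunit. The genes share 1124 exonic bases, which is 21.3% of the exonic bases of *Cerkl* and 8.04% of those of *Itga4*. The library kit named in the methods does not mark strand, and reads from the shared bases can therefore not be assigned to either gene. *Itga4* was far more abundant, at 195, 203 and 203 RPKM with sh-NC, and fell to 16.1, 18.1 and 16.0 RPKM with sh-*Etv5* (limma adjusted p = 3.64e-13). *Cerkl* amounted to 8.63%, 9.29% and 8.78% of *Itga4* in the control libraries, and to between 10.8% and 16.4% in the knockdown libraries. The value of *Cerkl* thus moved with that of its neighbor, and how much of it came from *Itga4* transcripts was not tested. *Neurod1*, which shares 201 exonic bases with *Cerkl*, was listed at 0 in all 6 libraries.

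To see whether the loss extended along the chromosomes, the genes on either side were read from the same fit. They were not used in choosing the 5, except *Itga4*, which was passed over there as an integrin and overlaps *Cerkl*. Across the table, 74.3% of the genes tested differed at a limma adjusted p-value under 0.05, with 33.3% higher and 41.0% lower in knockdown cells. Of the 52 genes that overlapped a member or were among the 5 nearest on either side, 27 were tested. Of these, 15 were lower, 6 were higher and 6 did not pass the test, which is 77.8% called. Their median log2 difference was -0.16, against -0.05 for all genes tested. With 10 genes on each side the median was -0.03, with 17 higher and 23 lower. Without the genes that overlap *Cerkl*, 26 were tested, with 6 higher, 14 lower and a median of -0.16. Apart from *Itga4*, the tested neighbor with the most negative difference was *Skp2* (-1.34). The count of higher genes was 3 without replicate 3 of sh-NC and 3 without replicate 3 of sh-*Etv5*.

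Next to *Cd24a*, *1700021F05Rik*, 37.3 kb away, was at 11.8 ± 0.836 RPKM with sh-NC and 12.9 ± 1.70 RPKM with sh-*Etv5* (SD, n = 3), and did not pass the test (log2 difference 0.12, limma adjusted p = 0.23). Without replicate 1 of sh-*Etv5* it was higher (0.22, limma adjusted p = 0.016). The nearest gene on the other side, *1700027J07Rik*, was listed at 0 in each library. *Bend3*, 62.9 kb from *Cd24a*, fell from 6.49 ± 0.126 to 3.17 ± 0.281 RPKM (SD, n = 3; log2 difference -0.85). *Nadk2*, which encodes a mitochondrial NAD kinase and starts 3.93 kb from the end of *Ranbp3l*, went from 9.08 ± 0.497 to 5.96 ± 0.141 RPKM (SD, n = 3; log2 difference -0.53, limma adjusted p = 7.07e-06). *Skp2*, 44.7 kb from *Ranbp3l* and encoding a ubiquitin ligase subunit of the cell cycle, went from 17.1 ± 0.668 to 6.13 ± 0.208 RPKM (SD, n = 3; log2 difference -1.34, limma adjusted p = 1.57e-09). On its other side, *Slc1a3* was at or near 0 in both groups.

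*Skil*, the nearest gene below *Cldn11* (27.3 kb) and an inhibitor of Smad signaling, fell from 9.11 ± 0.315 to 7.12 ± 0.394 RPKM (SD, n = 3; log2 difference -0.32, limma adjusted p = 0.000439). *Slc7a14*, 38.5 kb above *Cldn11*, was near 0 in both groups. Around *Scel*, *Mycbp2* (167 kb) fell from 10.4 ± 0.461 to 7.47 ± 0.780 RPKM (SD, n = 3; log2 difference -0.43, limma adjusted p = 0.000234), and *Slain1* (37.4 kb) was near 0 throughout. The nearest tested gene beside *Cerkl* that does not overlap it was *Ube2e3* (409 kb), which fell by 0.40 on the log2 scale (limma adjusted p = 3.2e-05). *Ppp1r1c* on the other side was listed at 0 in all libraries. *Acod1*, 457 kb from *Scel* and named after its values were seen, moved the other way, from 9.62 ± 0.162 to 311 ± 6.18 RPKM (SD, n = 3; log2 difference 4.87, limma adjusted p = 2.69e-15). It encodes the enzyme that makes itaconate in activated macrophages.

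**Figure D3:**
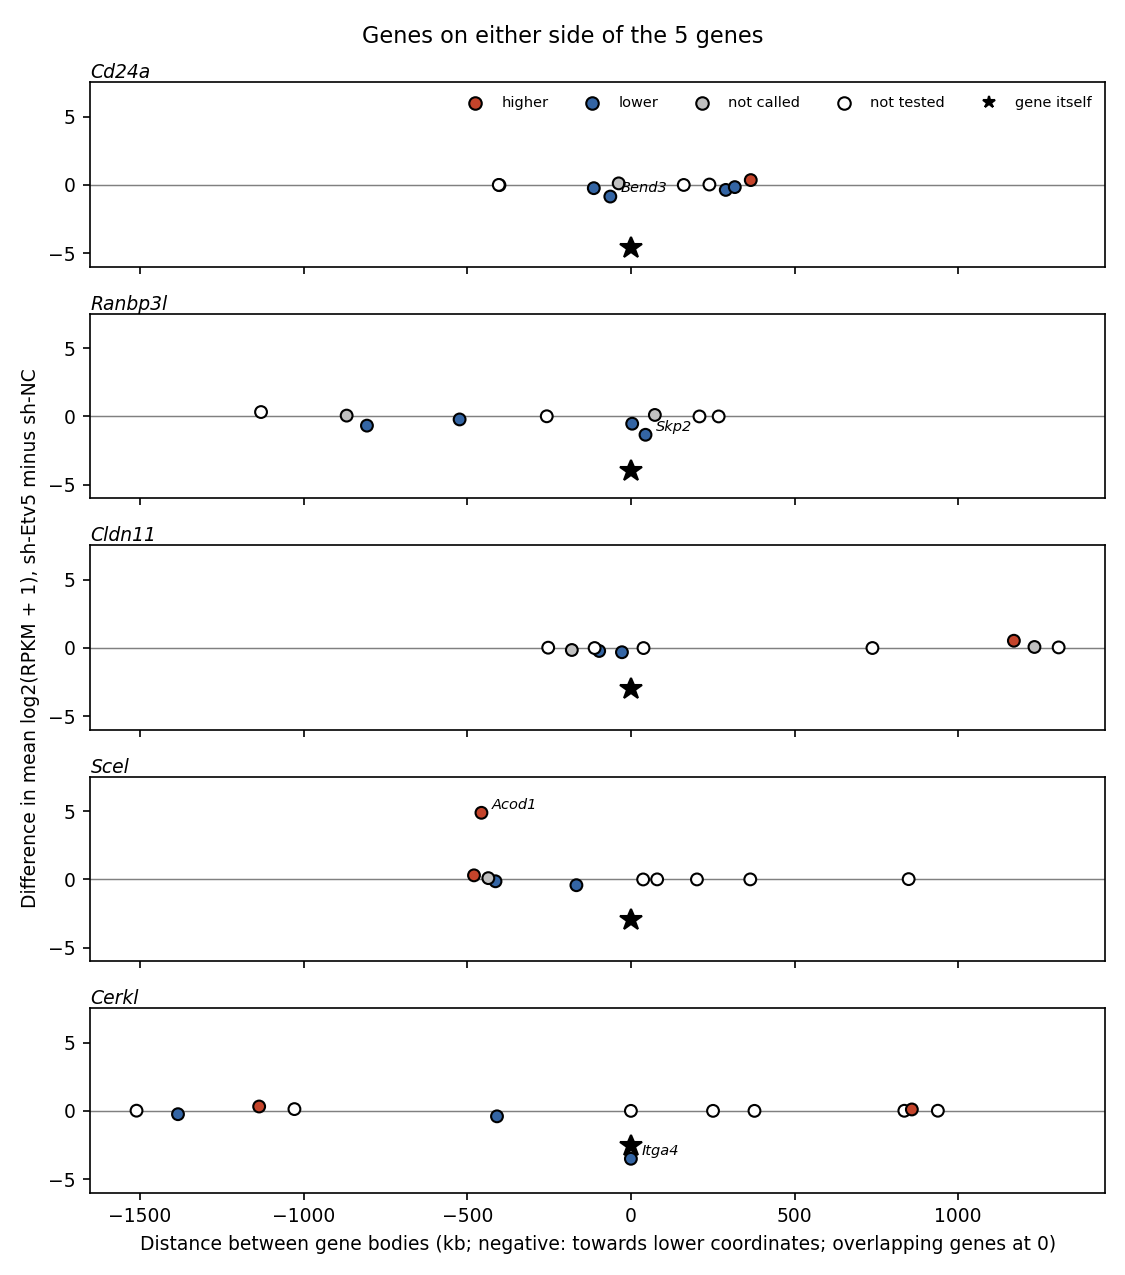
Difference in mean log2(RPKM + 1) between sh-*Etv5* and sh-NC for genes around each of the 5 genes, against the distance between gene bodies in kb, with colors for genes called higher, called lower, not called or not tested, and a star for the gene itself. The stars lie between -4.61 and -2.55, and *Itga4* (-3.51) is the one tested neighbor at a similar depth.

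CD24 is read by Siglec receptors and held by a GPI anchor, and other genes of both systems were examined. Of 14 genes for Siglecs and CD24 partners, 8 were tested, and 4 were higher and 4 lower, with a median log2 difference of -0.01. Of all genes tested, 74.3% were called, 33.3% as higher and 41.0% as lower, and the lists are to be read against these shares. *Siglecg*, whose product is the mouse receptor described for CD24, did not exceed 0.0326 RPKM in any library. *Cd33* fell from 14.6 ± 0.295 to 3.90 ± 0.400 RPKM (SD, n = 3; log2 difference -1.67, limma adjusted p = 1.66e-09). *Siglec1*, the sialoadhesin gene of macrophages, rose from 2.16 ± 0.0529 to 22.02 ± 2.86 RPKM (SD, n = 3; log2 difference 2.86, limma adjusted p = 1.81e-10). *Hmgb1*, which encodes a nuclear protein and was listed among the CD24 partners, fell from 61.6 ± 1.45 to 30.9 ± 1.91 RPKM (SD, n = 3; log2 difference -0.97). Of the signaling phosphatases behind Siglecs, *Ptpn6* rose by 0.21 and *Ptpn11* fell by 0.28 on the log2 scale. *Selplg* (-0.24), *Siglece* (0.83) and *Mag* (0.89) passed the test as well.

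The GPI anchor pathway was read from a list of 27 genes. All 27 genes were tested, 13 were lower, 6 were higher and 8 did not pass, with a median log2 difference of -0.15. The share called was 70.4%, against 74.3% of all genes. The largest changes were those of *Pgap3* (-0.66), *Dpm3* (-0.51) and *Pigq* (-0.47) downward and of *Pigl* (0.61), *Piga* (0.41) and *Pgap2* (0.34) upward.

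For *Ranbp3l*, the Ran cycle and nuclear transport were compared with BMP and Smad signaling. Of 35 transport genes, all were tested, 26 were lower, 5 were higher and 4 did not pass (88.6% called, against 74.3% of all genes, of which 41.0% were lower), and their median log2 difference was -0.31. The paralog *Ranbp3* went from 46.2 ± 1.09 to 28.5 ± 1.54 RPKM (SD, n = 3; log2 difference -0.68, limma adjusted p = 1.24e-07). *Kpna2* (-1.06) and *Cse1l* (-0.85), an importin and its recycling factor, and *Rcc2* (-1.04) fell most. *Ran* itself fell from 280 ± 2.57 to 190 ± 10.0 RPKM (SD, n = 3; log2 difference -0.56). *Kpna4* (0.62), *Ipo4* (0.26) and *Ranbp9* (0.20) rose. With libraries rescaled to the same sum of RPKM, 3 rather than 5 genes were higher.

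Of 35 BMP and Smad genes, 23 were tested, of which 10 were higher, 8 were lower and 5 did not pass (78.3% called, against 74.3% of all genes), with a median log2 difference of 0.04. Among the Smads described as cargo of RANBP3L, *Smad1* rose from 4.71 ± 0.167 to 7.96 ± 0.322 RPKM and *Smad5* fell from 5.83 ± 0.265 to 3.43 ± 0.271 RPKM (SD, n = 3; log2 differences 0.65 and -0.63). *Smad9* was listed at 0 in all libraries, and *Smad4* did not pass the test (0.04, limma adjusted p = 0.551). The BMP target *Id3* fell by 0.84 and the inhibitory *Smad6* by 0.75 on the log2 scale, and the receptor gene *Tgfbr2* fell by 0.88. Their relatives *Id2* (limma adjusted p = 0.0334) and *Smad7* (limma adjusted p = 0.000865) were higher, the former not under 6 of the alternatives. *Id1* did not pass the test (limma adjusted p = 0.138). The receptor gene *Acvrl1* rose from 1.89 ± 0.244 to 7.17 ± 0.469 RPKM (SD, n = 3), and *Acvr1b* rose by a log2 difference of 0.68.

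*Cldn11* had the highest level per length of the claudins in these cells. Of the 23 other claudins listed, 14 were at 0 in all libraries and 22 never reached 1 RPKM, with 0.357 RPKM as their highest value. *Cldn12* was the exception and moved in the opposite direction to *Cldn11*, from 1.53 ± 0.138 to 5.31 ± 0.395 RPKM (SD, n = 3; log2 difference 1.32, limma adjusted p = 3.8e-08). Of 11 claudin and tight junction genes tested, 5 were higher, 3 were lower and 3 did not pass (72.7% called, against 74.3% of all genes), and the median log2 difference was 0.05. *Cldnd1* (1.05) and *Magi1* (0.89) rose with *Cldn12*. *Marveld1* (-0.88), *Tjp3* (-0.34) and *Prkci* (-0.22) fell, and *Tjp3* did not pass when no filter on low values was used. The lower genes numbered 5 in that fit and 5 with libraries rescaled to the same sum.

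Most genes of the cornified envelope were hardly expressed in these cells. Of 37 such genes in the table, 3 were tested, and 0 passed at a limma adjusted p-value under 0.05. These were *Anxa1* (log2 difference -0.06), *S100a10* (-0.05) and *S100a11* (-0.01), which many cell types express, and at an unadjusted p-value under 0.05 the count was 0. With libraries rescaled to the same sum, *Anxa1* (-0.12, limma adjusted p = 0.0204) and *S100a10* (-0.11, limma adjusted p = 0.022) were lower, and without replicate 3 of sh-*Etv5* *S100a10* was (-0.10, limma adjusted p = 0.0215). With no filter on low values, 6 genes of the list were higher. Of the other 34, 15 were listed at 0 in all libraries, and *Cdsn* reached the most with 1.01 RPKM in 1 library. *Zfp185*, a relative of *Scel* among LIM domain genes, was listed at 0 in all 6.

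*Cerkl* is assigned to sphingolipid metabolism by sequence. Of 35 sphingolipid genes tested, 20 were higher, 9 were lower and 6 did not pass (82.9% called, against 74.3% of all genes, of which 33.3% were higher), and the median log2 difference was 0.17. *Cerk*, the ceramide kinase that CERKL resembles, went from 19.6 ± 0.684 to 10.5 ± 0.602 RPKM (SD, n = 3; log2 difference -0.85, limma adjusted p = 7.73e-08). *Smpd4* (-1.06) and *Sptssa* (-1.03) also fell, as did the receptor gene *S1pr1*, from 1.94 to 0.473 RPKM on average. *Degs1*, which makes ceramide from dihydroceramide, rose most, from 40.9 ± 1.56 to 163 ± 7.98 RPKM (SD, n = 3; log2 difference 1.97, limma adjusted p = 1.97e-11). *Sphk2* (0.93), which encodes a sphingosine kinase, rose as well.

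**Figure D4:**
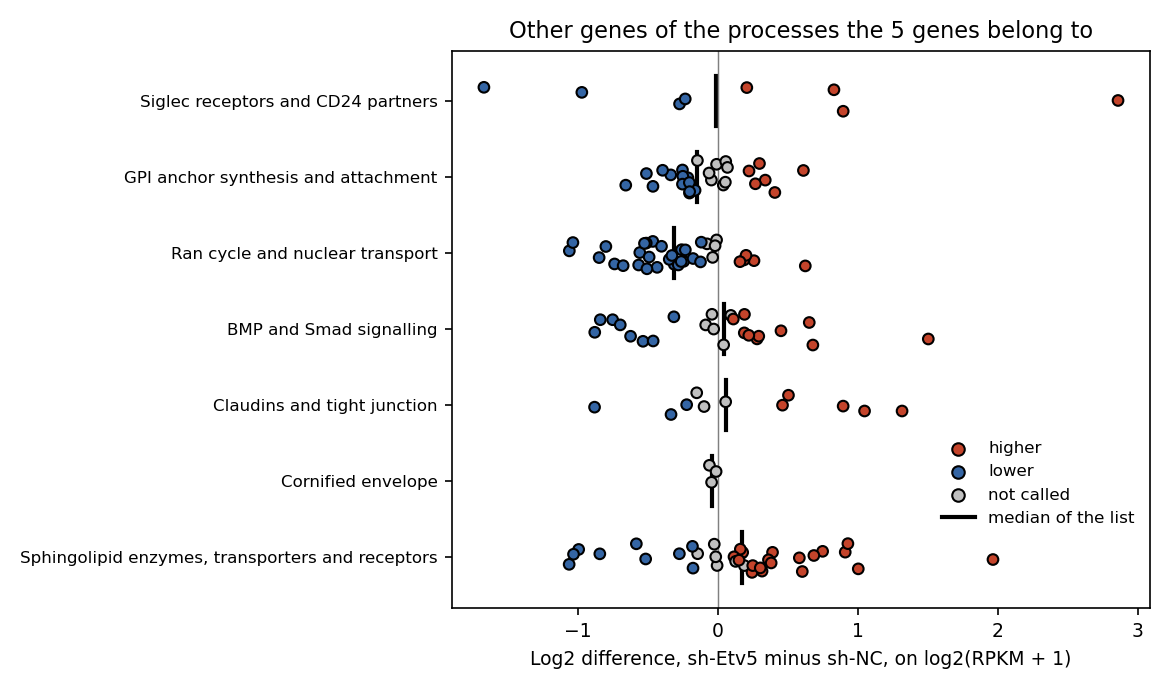
Log2 differences between sh-*Etv5* and sh-NC on the log2(RPKM + 1) scale for the tested genes of 7 lists, 1 point per gene, with colors for higher, lower and not called at a limma adjusted p-value under 0.05 and a bar at the median of each list. The medians lie between -0.31 for the Ran cycle and 0.17 for sphingolipid genes.

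Several of the 5 genes are best known outside macrophages, and the libraries were read for markers of other cells. Macrophage markers were abundant, with 11 of 12 tested and a summed level of 5116 to 5254 RPKM with sh-NC and 4191 to 4359 RPKM with sh-*Etv5*. Of these 11, 5 were higher, 5 were lower and 1 did not pass (90.9% called, against 74.3% of all genes). *Mertk* was near 0. *Csf1r* (-0.81), *Cd68*, *Lyz2*, *Fcgr1* and *Tyrobp* fell, *Itgam* (1.88), *Adgre1* (1.77), *Cd14*, *Fcer1g* and *Spi1* rose, and *Ptprc* did not pass the test. Of 6 B cell markers in the table, 5 never reached 1 RPKM, among them *Cd79a*, *Cd79b* and *Ms4a1*, and *Pax5* was at 0. *Blnk*, which macrophages also express, fell from 22.3 ± 0.635 to 7.05 ± 0.968 RPKM (SD, n = 3). Of 5 oligodendrocyte markers, *Mog*, *Olig2* and *Sox10* were at 0 and *Mbp* fell from 18.2 ± 0.539 to 8.34 ± 0.207 RPKM (SD, n = 3). All 6 epithelial and keratinocyte markers and all 5 fibroblast markers stayed under 1 RPKM, with summed levels of at most 0.0425 and 0.164 RPKM. Of the 7 neutrophil markers, 4 were at 0, including *S100a9*, while *S100a8* rose from 0.306 ± 0.184 to 17.1 ± 2.29 RPKM (SD, n = 3). Of 5 erythroid markers, *Hba-a1* alone passed the filter and rose by 1.16 on the log2 scale, and of 5 T cell markers, *Lck* alone did so and rose by 1.08. The part of other cells in the levels of the 5 genes was not tested. Fewer cells that express a gene and less RNA per cell cannot be told apart in bulk libraries.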

How the data were processed

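Messenger RNA of Raw264.7 cells was profiled in 3 sh-NC and 3 sh-*Etv5* libraries. The authors deposited 1 RPKM value per gene symbol and library, not log-transformed. Per the file headers the values came from coverage tracks, and per the labels the build was mm10. The aligner, annotation and strand setting are not given in the sources used here. The low values showed no step of 1 read, so depth is unknown and no counting interval was computed. RPKM summed to 320462 to 340257 per library, and 14691 to 15544 symbols were above 0. Log2(RPKM + 1) correlated at 0.996 to 0.997 within and 0.913 to 0.915 between groups, across the genes tested, which are not independent replicates.

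Genes with at least 1 RPKM in at least 3 libraries were fitted in R 4.3.3 by limma 3.58.1 (empirical Bayes with a trend, two-sided). Calls were made at a Benjamini-Hochberg adjusted p-value under 0.05 over all 10738 genes. Gene models came from GENCODE M21 (GRCm38), to which 97.9% of symbols matched, and promoters from RefSeq. The fit was tested on 20 simulated sets with 10738 genes, of which 200 were changed. It recovered 98.5% of changes of 0.5 and 100% of changes of 1 on the log2 scale, and 6.68% of calls were unchanged genes. In the real data 74.3% of genes were called, so these rates need not hold there. The 5 genes and all lists were chosen with earlier results of these data known.

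The genes named were the 5 genes, *Etv5*, the 5 genes of next smaller fall and the integrin passed over, overlapping and nearest neighbors, the closest paralogs, up to 3 called genes per direction and list, and the 3 genes most alike. A few genes that the rule covers are not reported here. Of the genes the rule does not cover, *Bend3*, *Skp2*, *Ran*, *Siglecg*, *Ptpn6*, *Selplg*, *Smad1*, *Smad4*, *Smad5*, *Smad9*, *Cdsn*, the markers that were not called and the genes of next larger fall were named after their values were seen. *Id1*, *Id2*, *Smad7* and the called macrophage markers given without values were also named after their values were seen. Alternatives were other pseudocounts, filters and scalings, no trend, a replicate block, each library left out and more neighbors. The order by percent remaining, the 9 library pairs and the count without genes that overlap *Cerkl* were added after the data were seen.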

Additional observations from a re-analysis of the deposited data

How the results depend on the processing

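The direction of each of the 5 log2 differences was the same under every alternative run. As the genes were chosen for their fall in this contrast, that sameness is no separate support. The size and order of the differences depended on the scale. With pseudocounts of 0.1 and 0.01 the differences were -7.34 and -8.68 for *Cd24a*, -5.66 and -6.02 for *Ranbp3l*, -3.19 and -3.21 for *Cldn11*, -4.96 and -5.52 for *Scel*, and -2.96 and -3.01 for *Cerkl*. Quantile normalization gave -4.18 for *Ranbp3l* and -3.13 for *Scel*, and rescaling to the same sum gave -3.07 for *Cldn11*. In the order of falls, a pseudocount of 0.1 put *Cldn11* at place 20 and *Cerkl* at place 30. A pseudocount of 0.01 put *Ranbp3l* at place 5, *Scel* at 8, *Cldn11* at 79 and *Cerkl* at 98. By the difference in mean RPKM, *Cldn11* was at place 140, *Cd24a* at 395, *Ranbp3l* at 492, *Cerkl* at 651 and *Scel* at 1249. By the percent of the sh-NC mean, an order added after the data were seen, *Scel* was at place 3 and *Cldn11* at 12.

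With 10 neighbors on each side, 17 were higher and 23 lower. Leaving out 1 library in turn gave 3 to 7 higher neighbors and 0 to 1 lower cornified envelope genes. A mean of at least 5 RPKM, which tests fewer genes, left 2 higher Siglec genes, 8 lower GPI genes, 6 higher and 4 lower BMP genes and 2 higher claudin and junction genes. With no filter, 5 junction genes were lower and 6 cornified envelope genes higher. Rescaling to the same sum gave 3 higher transport genes, 5 lower junction genes and 2 lower cornified envelope genes, and moved the median of all genes by -0.054. Of 147 calls among neighbors and list genes, 118 held under every alternative that tested the gene.

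Deviations of same-numbered libraries correlated at 0.0739, -0.0710 and -0.0352, and 1 of 3 numbers matched its own number best. No pairing by number was seen in these values, which cannot show how the libraries were prepared. With a replicate block 3539 genes were higher and 4361 lower, against 3575 and 4399 without it, and 3 of the 147 calls were lost. The unknown depth limits all values near 0, above all those of *Cd24a*, *Ranbp3l* and *Scel* in knockdown cells.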
